A study of Mus musculus with 31 samples.

Results

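Cisplatin was set against phosphate-buffered saline (PBS) in the kidney of wild-type (WT) mice, across all genes of the deposited count table. The comparison holds 16 of the 31 libraries of the series, chosen by title: 8 labelled WT with cisplatin and 8 labelled WT with PBS. The other 15 come from mice that the labels call Nbl1 HET (8 given cisplatin and 7 given PBS). They share 1 fit with the WT libraries, with its low-count filter, scaling and estimate of spread, and their values are given only where named. All mice were male and on the B6 background. Dosing began at 8 weeks of age and ran over 4 weeks, and kidneys were taken 3 days after it at a stated age of 11 weeks, which does not add up. Neither the dose and route of cisplatin nor the type of the Nbl1 allele is stated. Each library carries its own animal number and was taken as 1 animal.

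Cisplatin, a chemotherapy drug, forms platinum adducts on DNA. It enters the cells of the proximal tubule, the part of the nephron that recovers most filtered solutes, and it is known for injuring them. Injured tubule cells arrest through p53, lose transport and oxidative metabolism, and make proteins of repair, of epithelial defence and of signalling to immune cells. RNA of whole kidney mixes all its cell types, so fewer cells of a type and less RNA per cell cannot be told apart.

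The tissue read as kidney in both groups, with all 5 markers of the proximal tubule present. Slc34a1, the phosphate transporter of its brush border, had 45.9, 366 and 1256 CPM (counts scaled to a total of 1000000; lowest, median and highest library) under cisplatin, against 4216, 4670.2 and 4936 CPM under PBS. Totals were 24.7 to 28.9 M counts under cisplatin and 29.8 to 37.3 M under PBS. One library of each group stood apart. On the first principal component of the 16 libraries (76.9% of the variance, from 2000 genes chosen for their variance), WT cisplatin 6 lay at 25.3, the other 7 cisplatin libraries at 43.9 to 81.3, and the PBS libraries at -62.8 to -54.4. The library labelled WT PBS 6 had 3.71 CPM of Nbl1, the gene altered in the HET mice, against 5.83 to 7.90 CPM in the other 7 PBS libraries, and its label is doubtful at that locus. Nbl1 itself had 10.7, 21 and 26.2 CPM under cisplatin and 3.71, 6.37 and 7.9 CPM under PBS.

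Most tested genes differed between the groups, in similar numbers in both directions. Of 19268 genes tested with edgeR, 6469 (33.6%) were higher and 5705 (29.6%) lower under cisplatin at an adjusted p under 0.05. Many were small: 5511 of the 12174 called genes (45.3%) differed by less than 1.5-fold. A stricter test, which asks for a change of more than 2-fold, called 1096 genes higher (5.69%) and 1088 lower (5.65%). By TMM-scaled CPM, in 2772 genes every cisplatin library lay above every PBS library, and in 3352 every one lay below. Without WT cisplatin 6 and WT PBS 6 the counts were 6321 higher and 5723 lower, and 1120 and 1206 by more than 2-fold.

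**Figure D1:**
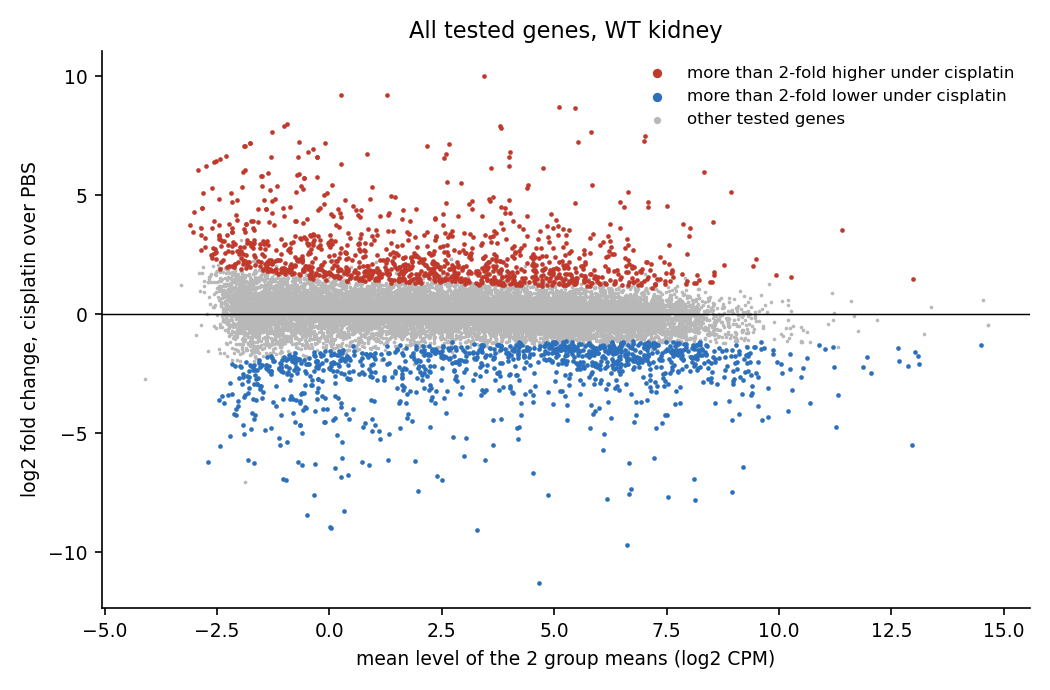
Each point is 1 of 19268 genes, with its level (log2 of the average of both group means, in CPM) on the horizontal axis and its log2 fold change, cisplatin over PBS, on the vertical axis. The 1096 genes more than 2-fold higher are red, the 1088 more than 2-fold lower are blue, and the other genes are grey.

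The balance of rises and falls depends on how libraries are scaled. The main scaling (TMM) assumes that most genes keep their level, and it left the median gene at a log2 fold change of 0.06. Scaling by library totals alone put the median gene at 0.45, with 11831 genes higher and 2862 lower, so that 80.5% of calls were rises, against 53.1% with TMM. All 6469 rises were called with both scalings. Of the 5705 falls, 2862 were kept, 2044 were not called and 799 were called higher. All 1088 falls of more than 2-fold were still called lower. The scalings differ by 0.39 on the log2 scale for the median gene, so a fall smaller than that is a fall relative to the typical gene.

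The libraries also differed in what they were made of. Under cisplatin 15442, 15881 and 16148 genes (lowest, median and highest library) reached 1 CPM of total counts, against 14610, 14941 and 15238 genes under PBS. The 100 most abundant genes took 26.9% ± 0.63 of the counts under cisplatin and 34.2% ± 0.65 under PBS (SD, n = 8 each). Counts of mitochondrially encoded genes fell to 3.44% ± 0.77 under cisplatin, against 8.41% ± 0.28 under PBS. For these 3 quantities and for the total count, no library of one group overlapped the other, and each difference had an adjusted p of 0.000155, the smallest that the exact two-sided permutation test of 12870 splits can give.

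Abundant genes had lower fold changes than scarce genes. Protein-coding genes were put in deciles by their level in HET PBS kidneys, which the WT comparison does not use. In the highest decile (130 to 32837 CPM) 1001 of 1510 genes fell and 263 rose, with a median log2 fold change of -0.47. In the lowest decile, up to 0.691 CPM, 150 of 1510 fell and 632 rose, with a median of 0.59. With library totals 704 fell and 579 rose in the highest decile, 390 fell and 887 rose in the ninth, and 101 fell and 859 rose in the lowest. With TMM each decile between them had a lower median than the decile below it in level, and across 15092 genes Spearman's rho of level and log2 fold change was -0.35. The low-count filter took in cisplatin libraries too, so a gene with almost no counts under PBS was tested only if it had counts under cisplatin. This builds in part of the rises in the lowest decile and of rho, and how large a part was not tested. Genes share libraries and are no independent replicates, so this is a description.

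Gene length had little relation to the response, apart from its far end. Among protein-coding genes in the longest decile by genomic span, from 126605 bases up, 148 of 1510 were more than 2-fold lower and 69 more than 2-fold higher. In the shortest decile 85 fell and 115 rose by that measure. The deciles' medians lay between -0.01 and 0.06, and rho over all of them was -0.035. Among the annotated classes, small nuclear RNAs were higher in 24 of 32 cases and lower in 0, although their many copies may share reads. Transcripts annotated inside introns of other genes rose in 63 of 180 cases (35%), near the 33.6% of all genes. They fell in 3 (1.67%), against 29.6% of all genes. Of long intergenic RNAs 181 of 683 were higher (26.5%) and 129 lower (18.9%), both below the shares of all genes. Median log2 fold changes of chromosomes 1 to 19 and X lay between -0.01 and 0.15, whereas 15 of 16 tested genes of the mitochondrial genome fell, with a median of -1.67.

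The largest rises were in genes with few or no counts under PBS. The low-count filter let such genes in only if they had counts under cisplatin, and a ranking by fold change favours a low PBS level. Both build in part of this pattern, and how large a part was not tested. Gsta1, a glutathione transferase that conjugates reactive compounds, reached 58.4, 83 and 139 CPM under cisplatin, against 0.105, 0.198 and 0.346 CPM under PBS (log2 fold change 8.67, SE 0.31, adjusted p = 1.89e-20). Its near-identical copies may share reads. Ano3, a membrane protein of the anoctamin family, had 13.4, 29.8 and 38.9 CPM under cisplatin and 0, 0.0825 and 0.307 CPM under PBS (7.91, SE 0.45). Celf5, an RNA-binding protein best known from neurons, had 3.45, 9.24 and 14 CPM under cisplatin and 0, 0.0667 and 0.126 CPM under PBS (7.05, SE 0.44). In all 3 genes every cisplatin library lay above every PBS library.

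Several genes had no counts in any PBS library, and these could pass the low-count filter only through counts in other groups. Cxcl17, a chemokine of mucosal surfaces (ENSMUSG00000060188, chromosome 7, bases 25400053 to 25412886 of GRCm38), had 589 counts over the 8 cisplatin libraries (43 to 101 each) and 0 counts in PBS, and was at least 187-fold higher with 3 counts over the PBS group as the floor. Crct1, a gene of the cornified layer of skin, had 260 counts against 0 (at least 81.4-fold), spread unevenly from 4 to 140 per library. Sftpd, the lung surfactant protein D of innate defence, had 245 counts against 0 (at least 77.4-fold), and Nkx2-9, a homeobox factor, 147 against 0 (at least 46.2-fold). Casp14, a caspase of skin cornification and not of apoptosis, had 1207 counts under cisplatin and 1 under PBS, a ratio of 1153 with a 95% counting interval of 207 to 45595. Serpina3m, a protease inhibitor with near-identical neighbours, had 314 counts against 1 (ratio 300.1, 53.5 to 11889). These intervals and floors cover counting error only. All 8 cisplatin libraries held counts of each of these 6 genes.

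**Figure D2:**
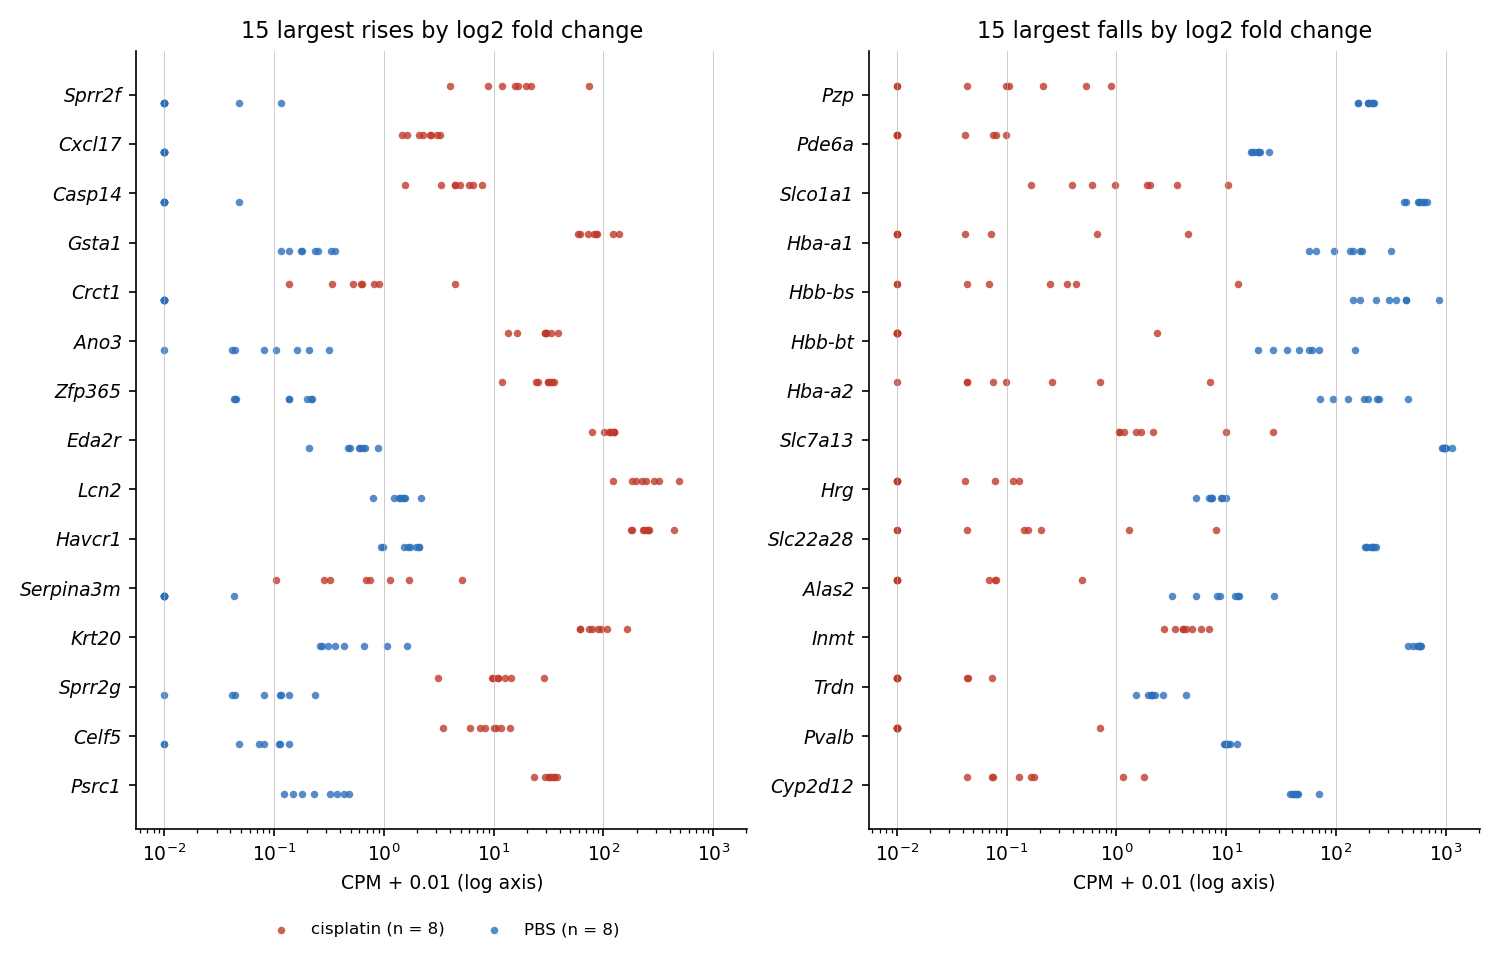
Values of the 15 genes with a regular symbol and the largest rises, and the 15 with the largest falls, in each of the 16 libraries, on a log axis of CPM + 0.01. Cisplatin libraries (red, upper row of each gene) and PBS libraries (blue, lower row) do not overlap in any of the 30 genes.

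Of all tested genes the pseudogene Gm6300 fell the most (-11.28, with means of 0.0158 CPM under cisplatin and 50.5 CPM under PBS), and several of the next falls were in noncoding genes. The genes described here are from the 15 largest falls with a regular gene symbol. Pzp, a protease-binding protein of the alpha-2-macroglobulin family (ENSMUSG00000030359, chromosome 6, bases 128483567 to 128526720 of GRCm38), had 0, 0.0917 and 0.886 CPM under cisplatin and 158, 198 and 220.5 CPM under PBS (-9.72, SE 0.4, adjusted p = 5.26e-19). Inmt, which methylates indoles such as tryptamine, had 2.74, 4.17 and 6.91 CPM under cisplatin and 450.2, 568 and 593 CPM under PBS (-6.93, SE 0.4, adjusted p = 1.6e-15). Pde6a, a phosphodiesterase subunit known from rod photoreceptors, had 0, 0.0158 and 0.0891 CPM under cisplatin and 16.8, 19.5 and 24.4 CPM under PBS (-9.06, SE 0.37). Every cisplatin library was below every PBS library in all 3. Hrg, the histidine-rich glycoprotein of plasma, fell by 7.45 (SE 0.45). Trdn, the triadin of calcium release, fell by 6.86 (SE 0.52), and Cyp2d12, a cytochrome P450, fell by 6.68 (SE 0.63). Slc7a13, an amino acid carrier of the last proximal segment, had 1.04, 1.59 and 26.6 CPM under cisplatin and 929.9, 981 and 1139.9 CPM under PBS, and the cisplatin maximum was WT cisplatin 6.

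Haemoglobin transcripts varied widely among animals in both groups. The 4 globin genes summed to 0.0320, 0.210 and 26.8 CPM under cisplatin and 290.2, 704.7 and 1798 CPM under PBS. Their near-identical copies share reads, and how much blood remained in each kidney was not measured. Among genes at 0 counts in all 8 cisplatin libraries, those with the highest PBS means were mostly noncoding. AA536875, a processed transcript, had 486 counts under PBS (at least 169-fold lower under cisplatin), and Gm29012, a long intergenic RNA, had 334 (at least 116-fold lower). Mup7, of the major urinary proteins, and the small nuclear RNA Gm24924 also had 0 counts under cisplatin, but 7 of the 8 PBS libraries for Mup7 and 6 of 8 for Gm24924 were at 0 too.

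In absolute CPM, noncoding RNA led the gains and mitochondrial RNA the losses. The largest gain was in Malat1, a nuclear long noncoding RNA, with 20682, 28861 and 39433 CPM under cisplatin and 16089.9, 18926 and 21067 CPM under PBS (0.62, SE 0.097). In TMM-scaled CPM the groups overlapped, since the lowest cisplatin library lay inside the PBS range. As a share of the library total Malat1 took 2.33% to 4.52% under cisplatin and 1.43% to 1.82% under PBS, with no overlap. Neat1, the RNA scaffold of paraspeckles, had 1926, 2761 and 5141 CPM under cisplatin and 1058, 1647 and 2507 CPM under PBS (0.89, SE 0.17), with an overlap in TMM-scaled CPM. Gm43305, a processed transcript, rose by 1.48 (SE 0.2), and Rn7sk, the RNA that holds back transcription elongation, by 0.29 (SE 0.066). Rpph1, the RNA of ribonuclease P, rose by 0.55 (SE 0.058). These RNAs include some without a poly(A) tail, while the library kit named in the labels is for mRNA, and how they were captured was not tested.

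Coding genes were also among the 10 largest gains. C3, the central complement component, averaged 943 ± 202 CPM under cisplatin and 26.9 ± 9.32 CPM under PBS (SD, n = 8 each; log2 fold change 5.13, SE 0.19, edgeR adjusted p = 3.27e-20). Ctsd, a lysosomal protease, had 1041, 1508 and 2089.9 CPM under cisplatin and 444, 467 and 517 CPM under PBS (1.64, SE 0.1). Ahnak, a very large scaffold protein at the plasma membrane, averaged 1849.6 ± 598 CPM under cisplatin and 627 ± 49.1 CPM under PBS (1.56, SE 0.16). In each the groups did not overlap. The largest loss was in mt-Co1, a subunit of cytochrome oxidase, with 10920.2, 12295 and 17336 CPM under cisplatin and 30055, 32685 and 35386 CPM under PBS (-1.29, SE 0.1). Gm28437 and Gm28661, nuclear copies of mitochondrial sequence, fell by 1.76 and 1.58, and their reads cannot be told from mitochondrial ones. Rn7s1 and Rn7s2, copies of the signal recognition particle RNA, had identical values in every library and fell by 0.45 (SE 0.066), or by 0.06 with library totals, where that fall was no longer called.

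Gene families were read from the symbols themselves, by the letters before the first digit, which gave 207 families of at least 10 tested genes. The clustered beta protocadherins, adhesion proteins best known from neurons, had the largest share of rises, with 17 of 20 higher, 0 lower and a median of 0.99. They are scarce and similar to each other: Pcdhb17 had 3.67, 5.01 and 5.72 CPM under cisplatin and 1.42, 1.9 and 2.49 CPM under PBS (1.34, SE 0.13). Genes of the Hoxb cluster, which keep positional identity, rose in 8 of 10 cases. Hoxb9 had 33.8, 62.3 and 65.5 CPM under cisplatin and 16.4, 17.5 and 20.2 CPM under PBS (1.67, SE 0.11), and Hoxb3 and Hoxb5 rose by 1.11 and 1.16. Wnt ligands, secreted signals of kidney development and repair, rose in 10 of 13 and fell in 3. Wnt10a rose to 4.62, 8.78 and 12 CPM under cisplatin, against 0.491, 0.618 and 1.24 CPM under PBS (3.45, SE 0.29), Wnt4 and Wnt7b rose by 1.45 and 1.40, and Wnt11 fell by 2.32.

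Host genes of small nucleolar RNAs (Snhg) rose in 14 of 18, among them Snhg15 at 10.5, 17.5 and 23.3 CPM under cisplatin and 2.66, 3.57 and 4.86 CPM under PBS (2.36, SE 0.14). Of the Parp family, which attaches ADP-ribose to proteins and includes sensors of DNA breaks, 9 of 12 rose and 3 fell. Parp3 and Parp2 rose by 0.81 and 0.66, whereas the main sensor Parp1 fell by 0.63 (SE 0.052; -0.24 with library totals). Annexins, membrane-binding proteins, rose in 8 of 11: Anxa3 had 58.1, 101 and 172 CPM under cisplatin and 8.73, 10.3 and 11.5 CPM under PBS (3.35, SE 0.22). Anxa13 was the 1 that fell, by 2.97 (SE 0.13). Traf adaptors of TNF receptor signalling rose in 7 of 10, but in 5 with another scaling (RLE).

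Genes of cytosolic ribosomes mostly rose and those of mitochondrial ribosomes mostly fell. By list, 72 rose and 5 fell of 83 cytosolic and 5 rose and 68 fell of 79 mitochondrial ribosomal proteins. Of the Rps and Rpl families, which include pseudogene copies, 40 of 55 and 41 of 61 rose. Rps19 had 213, 234 and 258 CPM under cisplatin and 116, 123 and 128 CPM under PBS (0.94, SE 0.042), and Rps27l, a p53-responsive relative of a ribosomal protein, rose by 1.11 (SE 0.051). Of the Mrpl and Mrps families 44 of 50 and 24 of 29 fell, with medians of -0.44 and -0.41 that became -0.05 and -0.02 with library totals, where 18 and 9 fell and 11 and 7 rose. Mrpl33 went against its family, with 47.8, 58.1 and 69.3 CPM under cisplatin and 21.1, 22.8 and 25.2 CPM under PBS (1.34, SE 0.073).

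Most families with the largest shares of falls were mitochondrial or peroxisomal. All 14 Timm genes, which import proteins into mitochondria, were lower relative to the typical gene (median -0.43), but with library totals 1 rose and 6 fell. Complex I subunits of the Ndufa and Ndufb families fell in 13 of 14 and 11 of 12, and in 6 of each with library totals. Pex genes, which build peroxisomes, fell in 15 of 17 (9 with library totals), and Coq genes, which make ubiquinone, in 9 of 11 (8 with library totals). Coq8a had 20.3, 28.5 and 42.9 CPM under cisplatin and 86.2, 95.9 and 102 CPM under PBS (-1.63, SE 0.15). The Cox family fell in 22 of 26 (15 with library totals), and its single rise was Cox6b2, an isoform known from testis, at 12.1, 29.7 and 37.8 CPM under cisplatin and 1.09, 1.55 and 1.82 CPM under PBS (4.24, SE 0.18). Hydroxysteroid dehydrogenases (Hsd) fell in 10 of 13, among them Hsd11b1, which activates glucocorticoids, by 2.09 (SE 0.1).

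Axonemal dynein heavy chains (Dnah), motors of motile cilia, fell in 9 of 12 and kept all 9 falls with library totals. Dnah5 had 0.0314, 0.159 and 0.23 CPM under cisplatin and 4.12, 4.84 and 5.6 CPM under PBS (-5.05, SE 0.27), and Dnah9 fell by 5.39 (SE 0.4). Foxj1, the master factor of motile cilia, was higher, with 1.18, 1.8 and 2.83 CPM under cisplatin and 0.175, 0.398 and 0.584 CPM under PBS (2.36, SE 0.36). Of the genes that move cargo in the primary cilium, 5 rose and 18 fell of 27, and 10 rose and 3 fell with library totals. Ift122 fell by 1.46 (SE 0.096).

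**Figure D3:**
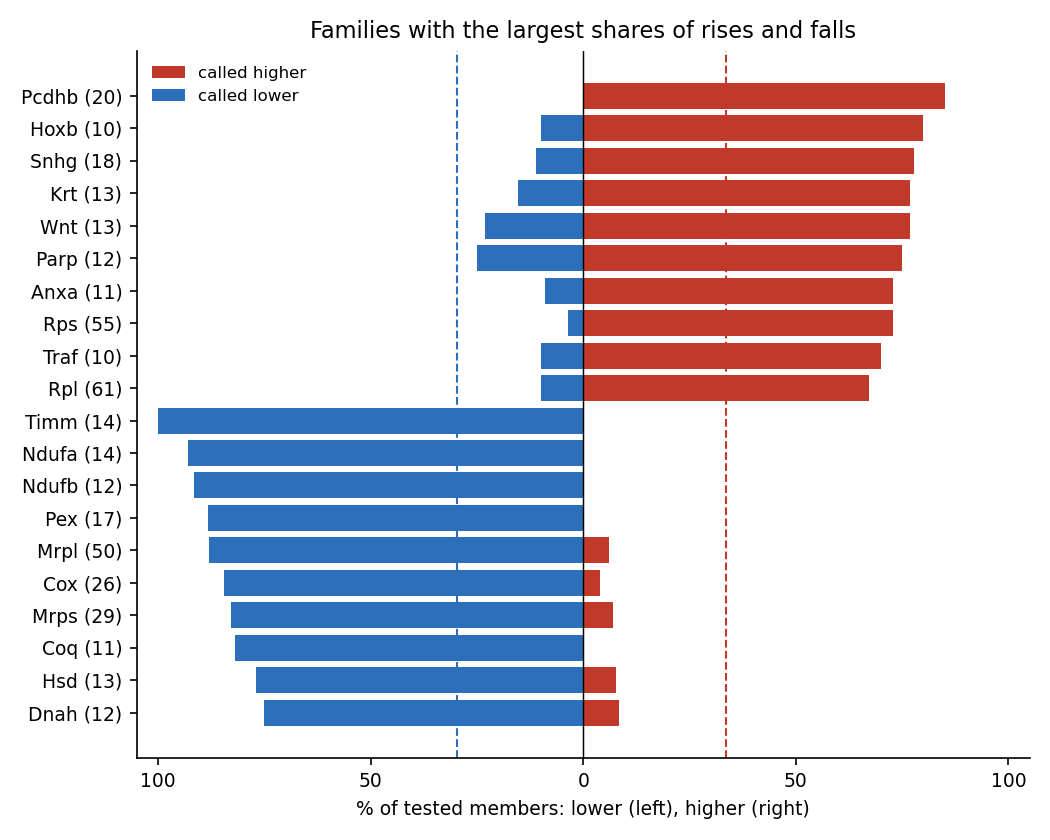
For the 10 symbol families with the largest share of rises and the 10 with the largest share of falls, bars give the percentage of tested members called higher (red, to the right) and lower (blue, to the left), with the number tested beside the name. Dashed lines mark the same percentages over all 19268 genes, 33.6% and 29.6%.

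More solute carriers fell than rose, a balance that turned with the scaling. Of solute carriers, 89 rose and 172 fell of 332 tested, and 137 rose and 120 fell with library totals; their median moved between -0.32 and 0.07. Among those with the smallest p, Slc18a1, a vesicular monoamine carrier, had 29.4, 36 and 41 CPM under cisplatin and 193, 256 and 274 CPM under PBS (-2.79, SE 0.081, adjusted p = 9.09e-23). Slc9a8, a sodium-proton exchanger, fell by 2.30 and Slc46a3, a lysosomal carrier, by 2.75. Of ABC pumps 13 rose and 17 fell of 40 (32.5% and 42.5%), against 33.6% and 29.6% of all genes. With library totals 23 rose and 13 fell. Abcc3 and Abcb1b were among the rises. Abcc3, an exporter of conjugates, had 29.9, 52.5 and 95.6 CPM under cisplatin and 2.08, 3.29 and 3.95 CPM under PBS (4.19, SE 0.21), and Abcb1b, the multidrug pump, had 44.8, 71.6 and 94.7 CPM under cisplatin and 5.6, 6.25 and 7.26 CPM under PBS (3.54, SE 0.16). Of potassium channel genes 25 rose and 17 fell of 65 (38.5% and 26.2%), near the 33.6% and 29.6% of all genes. Kcnj16, a basolateral tubule channel, was lower by 1.10. Subunits of the vacuolar proton pump fell in 16 of 23 cases and rose in 2, while 7 rose and 8 fell with library totals.

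Most enzyme families held both rises and falls, and over all genes 33.6% rose and 29.6% fell. The share of rises lay near that in cytochromes P450 (30%), aldehyde dehydrogenases (33.3%) and sulfotransferases (37.5%). Their shares of falls were 46%, 52.4% and 12.5%. All 4 medium-chain acyl-CoA synthetases fell: Acsm2 had 39.4, 174 and 357 CPM under cisplatin and 4237, 4726 and 5022 CPM under PBS (-4.76, SE 0.31), and Acsm3 fell by 6.44 (SE 0.34). Of cytochromes P450 15 rose and 23 fell of 50 (19 rose and 18 fell with library totals). Cyp4b1 had 175, 198 and 425 CPM under cisplatin and 2795, 3148 and 3494 CPM under PBS (-3.75, SE 0.2), while Cyp2s1 rose by 2.68. Glucuronosyltransferases were divided too (9 rose and 8 fell of 18), with Ugt2b38 lower by 4.46 and Ugt1a10 higher by 4.51; members of the Ugt1a locus share exons, so single values are uncertain. Of aldehyde dehydrogenases 7 rose and 11 fell of 21. Aldh1a1, which makes retinoic acid, had 103, 171 and 249 CPM under cisplatin and 4.48, 6.36 and 8.05 CPM under PBS (4.73, SE 0.19), and Aldh3a2, which clears fatty aldehydes, fell by 1.63 (SE 0.053). Glutathione transferases mostly rose (13 rose and 4 fell of 24), and of sulfotransferases 3 rose and 1 fell of 8. Peroxisome genes of biogenesis and oxidation fell in 24 of 27 cases (19 with library totals), led in size by Pecr at -3.27.

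Counts for several lists of protein upkeep turned with the scaling. Core autophagy genes fell in 19 of 23 and rose in 2, but 7 rose and 7 fell with library totals. Gabarapl1, which coats autophagosomes, had 184, 222 and 269 CPM under cisplatin and 483, 599.8 and 693 CPM under PBS (-1.42, SE 0.11). Aminoacyl-tRNA synthetases fell in 24 of 35 (15 rose and 10 fell with library totals), with the mitochondrial enzymes Rars2 and Iars2 at -0.87 and -0.51, while cytosolic Vars rose by 0.74. Of DnaJ and heat shock genes 16 rose and 33 fell of 64 (30 rose and 22 fell with library totals), and Hspd1, the mitochondrial chaperonin, fell to 144, 172 and 317 CPM under cisplatin, against 630.2, 685 and 778 CPM under PBS (-1.82, SE 0.13). Proteasome subunits (7 rose and 23 fell of 49) and translation initiation factors (18 rose and 21 fell of 55) moved little, with medians of -0.13 and -0.01 that became 0.26 and 0.39 with library totals. Of the initiation factors 32.7% rose, near the 33.6% of all genes, and 38.2% fell, against 29.6%. Complex I subunits as a whole fell in 37 of 39 and rose in 0 (24 fell and 2 rose with library totals).

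Genes of epithelial filaments and contact rose more often than they fell. Keratins, the filaments of epithelial cells, rose in 10 of 13 and fell in 2, with Krt19 at 19.8, 42.5 and 48.1 CPM under cisplatin and 2.16, 4.09 and 5.29 CPM under PBS (3.29, SE 0.28). Only 13 of the 54 listed keratins passed the low-count filter. Keratins scarce under PBS could pass it through counts under cisplatin, and the part of this in the share of rises was not tested. Of junction and polarity genes 17 rose and 4 fell of 22. Cdh6, a cadherin of the developing and proximal tubule, had 28.6, 59.2 and 71 CPM under cisplatin and 8.92, 10.3 and 12.9 CPM under PBS (2.39, SE 0.2), and Tjp1, a plaque protein of tight junctions, rose by 0.73. Claudins, which set tight junction selectivity, split: Cldn1 had 70.5, 128 and 154 CPM under cisplatin and 12.9, 14.6 and 17.7 CPM under PBS (3.02, SE 0.18), whereas Cldn18 had 1 count under cisplatin and 231 under PBS (ratio 0.00414, 95% counting interval 0.000104 to 0.0233). In all 8 rose and 6 fell of 18 claudins. Brush border genes leaned down (5 rose and 8 fell of 14), with Ush1c lower by 0.99. S100 proteins, calcium-binding partners of annexins, rose in 9 of 14: S100a6 had 101, 248 and 503 CPM under cisplatin and 8.16, 10.2 and 11.8 CPM under PBS (4.70, SE 0.34). Small proline-rich genes rose in 3 of the 6 tested, of 17 listed, with the same limit of the filter.

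Chains of the extracellular matrix held both rises and falls. Of laminins 6 rose and 4 fell of 11, and Lama3 fell by 1.04. Of collagens 16 rose and 11 fell of 40, shares near the 33.6% and 29.6% of all genes. Col4a3 and Col4a4, chains of the mature glomerular and distal tubular membrane, fell by 1.15 and 0.86 while Col18a1 rose by 1.75. Of integrin chains 15 rose and 11 fell of 29 (17 rose and 3 fell with library totals), with the laminin receptor Itgb4 at 27.5, 71 and 108 CPM under cisplatin and 6.15, 6.75 and 8.47 CPM under PBS (3.32, SE 0.25). ADAM proteases rose more often than they fell (18 rose and 4 fell of 36), as did serpins (17 rose and 4 fell of 29). Serpine2, which blocks thrombin and plasmin formation, had 93.9, 139.7 and 162 CPM under cisplatin and 12, 13.6 and 15.3 CPM under PBS (3.30, SE 0.2), and Serpina10 rose by 6.12.

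Transcription factors of the kidney epithelium fell more often than they rose with TMM scaling, and less often with library totals. Of that list, which includes factors of repair, 6 rose and 14 fell of 26 (12 rose and 8 fell with library totals). Sox9, a factor of tubule repair, had 13.5, 29.8 and 44.7 CPM under cisplatin and 0.678, 1.35 and 3.24 CPM under PBS (4.27, SE 0.37), and Sox4 had 73.5, 120.0 and 166 CPM under cisplatin and 20.8, 22.9 and 24.7 CPM under PBS (2.41, SE 0.18). Sox11, a factor of fetal tissue, had 2.72, 21.1 and 26.7 CPM under cisplatin and 0.333, 0.632 and 0.944 CPM under PBS (4.74, SE 0.52). Of AP-1 factors 3 of 11 rose (27.3%, near the 33.6% of all genes), 0 fell and 8 were not called. Fosl1, among those that rose, had 2.31, 16.1 and 26.8 CPM under cisplatin and 0, 0.0704 and 1.87 CPM under PBS (5.49, SE 0.66). Klf5 rose by 2.35 and Klf12 fell by 1.65 among Krüppel-like factors (8 rose and 2 fell of 15). Counts for the other lists were 4 rose and 3 fell of 13 Sox factors, 18 rose and 4 fell of 31 Hox genes, 12 rose and 3 fell of 26 forkhead factors and 124 rose and 59 fell of 376 Zfp genes. Of Sox factors 30.8% and of Zfp genes 33% rose, near the 33.6% of all genes, and 23.1% and 15.7% fell, against 29.6%.

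Signals of inflammation were mixed. Chemokines rose in 12 of 26 and fell in 7: Cxcl5, which draws neutrophils, had 299 counts under cisplatin and 2 under PBS (ratio 143, 95% counting interval 39.2 to 1185), and Cxcl9, which draws T cells, fell by 3.52 (SE 0.39). Interleukins and their receptors rose in 23 of 46, with Il33, an alarm signal of damaged epithelium, at 20.1, 25.4 and 26.6 CPM under cisplatin and 7.66, 9.06 and 11.9 CPM under PBS (1.38, SE 0.11), and Il1f6 at 404 counts against 3. TNF ligands and receptors rose in 16 of 27. Tnfrsf10b, the death receptor for TRAIL, rose by 2.48 (SE 0.13) while its ligand Tnfsf10 fell by 1.56 (SE 0.14). MHC genes fell in 16 of 25 (12 with library totals), with H2-T22 at 29.9, 32.6 and 38.6 CPM under cisplatin and 69.3, 76.4 and 85.1 CPM under PBS (-1.22, SE 0.054). Interferon-induced genes rose in 22 and fell in 17 of 56 (39.3% and 30.4%), near the 33.6% and 29.6% of all genes. With library totals 29 rose and 13 fell.

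Complement and clotting genes rose more often than they fell (13 rose and 8 fell of 24, and 12 rose and 6 fell of 20). C7, of the membrane attack complex, had 27.5, 47.3 and 56.8 CPM under cisplatin and 6.88, 8.04 and 10.4 CPM under PBS (2.44, SE 0.2), and C8g of the same complex fell by 3.12. The fibrinogen chains Fgg and Fgb rose by 3.71 and 3.11, whereas F5, coagulation factor V, fell to 1.16, 3.38 and 5.52 CPM under cisplatin, against 25.8, 28.9 and 32.9 CPM under PBS (-3.11, SE 0.21). Of Wnt and Frizzled genes 14 rose and 5 fell of 23. Of fibroblast growth factors and their receptors 4 rose and 4 fell of 14 (28.6% each), near the 33.6% and 29.6% of all genes, with Fgfr4 lower by 1.43.

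Hormone and homeostatic genes fell more often than they rose (7 rose and 16 fell of 28; 13 rose and 11 fell with library totals). Ace, the angiotensin-converting enzyme of the brush border, had 15, 22.7 and 54.5 CPM under cisplatin and 359, 389 and 404 CPM under PBS (-3.77, SE 0.23, adjusted p = 6.08e-15). Ghr, the growth hormone receptor, had 225, 255 and 474 CPM under cisplatin and 908, 970.3 and 1038 CPM under PBS (-1.74, SE 0.13). Edn1, the vasoconstrictor endothelin 1, went up to 6.32, 12.3 and 15.6 CPM under cisplatin, against 0.705, 1.01 and 1.57 CPM under PBS (3.37, SE 0.22). Of iron genes 6 rose and 7 fell of 16 (9 rose and 6 fell with library totals): Cp, the ferroxidase ceruloplasmin, had 317, 472 and 589.9 CPM under cisplatin and 39.9, 46.1 and 54.6 CPM under PBS (3.29, SE 0.13), and Slc11a2, an iron importer, fell by 1.15. Of hypoxia targets 5 rose and 7 fell of 18 (11 rose and 5 fell with library totals), with the glycolytic gene Hk2 higher by 3.27 and Pgk1 lower by 0.83.

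Genes that sense double-strand breaks moved by less than 2-fold, with 5 higher and 6 lower of 18 (13 and 0 with library totals) and log2 fold changes between -0.45 and 0.57. Their shares of 27.8% higher and 33.3% lower lay near the 33.6% and 29.6% of all genes. Among growth arrest factors Cdkn1a, the p21 inhibitor of cyclin-dependent kinases, had 364, 675 and 715 CPM under cisplatin and 2.6, 7.23 and 26.4 CPM under PBS (5.96, SE 0.41, adjusted p = 1.19e-13), and Rb1 rose by 0.83 (SE 0.044). Of that list 8 rose and 4 fell of 21. Caspases and gasdermins rose in 10 of 16. Other counts were 8 rose and 8 fell of 25 for RNA polymerase II and its general factors (21 rose and 1 fell with library totals), 4 rose and 3 fell of 10 for MCM helicase subunits (8 rose and 1 fell with library totals), 16 rose and 6 fell of 36 for kinesins and 20 rose and 7 fell of 51 for histones. The polymerase list (32% each way) and the MCM list (40% and 30%) lay near the shares of all genes. Receptors for odours and pheromones, which kidney makes at most in traces, rose in 40 and fell in 13 of 217 tested (18.4% and 5.99%), both below the 33.6% and 29.6% of all genes. Vmn1r19 had 0.0629, 0.297 and 0.648 CPM under cisplatin and 3.78, 4.89 and 13.2 CPM under PBS (-4.19, SE 0.41).

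Some changes came in blocks along the chromosomes. In 23 places at least 4 neighbouring tested genes all rose or all fell by more than 2-fold, 11 runs higher and 12 lower, with 119 genes in all, each run named here by its first and last gene. On chromosome 8, bases 93166068 to 93337308 of GRCm38, 5 neighbours from Ces1d to Ces1g fell, which hold carboxylesterases of drugs and lipids. On chromosome 6, bases 85706727 to 85832082, 5 acetyltransferase genes from Nat8f7 to Nat8 fell, and on chromosome 19, bases 7673061 to 8131982, 5 from Slc22a19 to Slc22a28, which hold organic anion transporters. On chromosome 9 a run of 4 from Gsta4 to Gm10639 rose. Runx1, Setd4, Cbr1 and Cbr3, on chromosome 16, all rose, and H2-Ob, H2-Ab1, H2-Aa and H2-Eb1, MHC class II genes on chromosome 17, all fell. The longest run, 15 genes from Sftpd to Gm21154 on chromosome 14, holds mostly unnamed genes of 1 duplicated region, whose reads may be shared. Neighbours in such runs are often copies of each other, so a run is no count of separate changes.

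Promoters were looked at for sequence that the calls did not use. RefSeq windows from 250 bases before to 50 after each annotated start were found for 12695 tested genes (16109 windows, GRCm38.p6), of which 752 were more than 2-fold higher and 762 more than 2-fold lower. The median window held 12 CpG in genes more than 2-fold higher, 9 in those more than 2-fold lower and 18 over all genes. The AP-1 letters TGAGTCA, on either strand, occurred in 7.71% of windows of the higher genes, 4.96% of the lower and 4.22% of all. The TATA letters TATAAA occurred in 12.4%, 11.8% and 8.54%, and the ETS letters CCGGAAG in 7.07%, 7.92% and 14.8%. The letters GTTAATNATT, a form of the HNF1 element, occurred in 0.95% of both changed classes and 0.335% of all. Paired cores of a p53 site, CATGNNNNNNCATG, occurred in 0.845%, 0.317% and 0.372%. The CCAAT box occurred in 33.4%, 37.5% and 37.3%, the E-box CACGTG in 6.34%, 10.2% and 9.23%, and the CRE letters TGACGTCA in 1.9%, 1.16% and 2.67%, in the same order. Windows of 1 gene overlap, matches can overlap, and these shares are a description with no test.

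The windows below show where such letters stand in 4 genes that changed strongly, chosen after their values were seen. Capitals mark the match, on either strand: the paired p53 cores in Cdkn1a (chr17:29090729-29091028, plus strand, 1 of its 2 windows), the AP-1 letters in the cornified envelope gene Sprr1a (chr3:92485832-92486131, minus strand), and the HNF1 letters in F13b (chr1:139501457-139501756, plus strand) and Cltrn (chrX:164089937-164090236, plus strand).
Cdkn1a: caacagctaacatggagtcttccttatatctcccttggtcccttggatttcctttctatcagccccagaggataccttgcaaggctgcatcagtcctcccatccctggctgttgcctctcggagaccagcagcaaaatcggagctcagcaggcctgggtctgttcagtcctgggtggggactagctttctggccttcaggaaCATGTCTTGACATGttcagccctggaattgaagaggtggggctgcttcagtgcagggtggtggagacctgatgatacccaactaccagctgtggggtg
Sprr1a: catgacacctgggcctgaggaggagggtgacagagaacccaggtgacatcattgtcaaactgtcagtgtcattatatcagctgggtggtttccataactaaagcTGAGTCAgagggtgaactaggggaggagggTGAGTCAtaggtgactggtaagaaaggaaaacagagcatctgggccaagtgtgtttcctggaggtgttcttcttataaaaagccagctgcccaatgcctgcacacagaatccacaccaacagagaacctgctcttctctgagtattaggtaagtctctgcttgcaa
F13b: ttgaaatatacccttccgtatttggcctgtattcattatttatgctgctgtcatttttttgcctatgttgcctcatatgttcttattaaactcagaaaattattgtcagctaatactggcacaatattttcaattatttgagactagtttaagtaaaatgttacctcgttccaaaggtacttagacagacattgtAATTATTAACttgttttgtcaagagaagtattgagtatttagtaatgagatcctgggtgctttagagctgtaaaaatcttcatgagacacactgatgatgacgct
Cltrn: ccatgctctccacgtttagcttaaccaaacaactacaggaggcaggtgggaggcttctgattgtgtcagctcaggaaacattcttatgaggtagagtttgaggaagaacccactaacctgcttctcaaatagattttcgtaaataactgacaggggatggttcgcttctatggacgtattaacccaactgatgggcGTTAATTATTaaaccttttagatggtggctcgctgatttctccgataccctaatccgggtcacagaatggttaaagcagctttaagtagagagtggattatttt
Sprr1a holds TGAGTCA at 2 places and had 16.9, 24.9 and 31 CPM under cisplatin and 1.86, 3.1 and 3.69 CPM under PBS (2.97, SE 0.25). F13b, a subunit of coagulation factor XIII, fell by 3.15 (SE 0.4), and Cltrn, collectrin, which brings amino acid transporters to the brush border, had 45.9, 119 and 271 CPM under cisplatin and 849, 888 and 977 CPM under PBS (-2.72, SE 0.22). HNF1 letters also stood in windows of genes that rose, Ugt1a10 and Cp among them.

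Animals given cisplatin differed more from each other than those given PBS in genes that changed by more than 2-fold, most of all in those that fell. Over all genes the spread was similar. Over all 19268 genes the median standard deviation of log2 CPM was 0.23 under cisplatin and 0.20 under PBS, and it was larger under cisplatin in 55.4% of genes. Over all genes more than 2-fold lower it was 0.51 under cisplatin and 0.17 under PBS, and over those more than 2-fold higher 0.42 under cisplatin and 0.39 under PBS. Over 645 genes more than 2-fold lower whose 2 group means averaged 10 CPM or more, the median standard deviation was 0.41 under cisplatin and 0.11 under PBS. Over 401 genes more than 2-fold higher by the same rule it was 0.32 under cisplatin and 0.20 under PBS. A gene with few counts under cisplatin can meet that rule, and few counts widen the spread of log2 CPM. The part of counting in these differences was not tested. In Miox, the inositol oxygenase of the proximal tubule, WT cisplatin 6 had 275 CPM and the lowest cisplatin library 1.57 CPM, while PBS libraries held 929, 1055 and 1156 CPM. Slc22a8, an organic anion transporter, had 2.3, 24.3 and 151 CPM under cisplatin and 348, 378 and 419 CPM under PBS. Akr1c21, a steroid dehydrogenase, had 7.42, 100.2 and 431 CPM under cisplatin and 827, 886 and 972 CPM under PBS. WT cisplatin 6 was the highest and WT cisplatin 4 the lowest cisplatin library in all 3, and equally in Cyp2d26, Ugt3a1, Acmsd, Cyp2j5, Dnase1 and Slc22a12. Of the 10 most variable genes these are 9, and Gm28438, an unprocessed pseudogene, had another order: WT cisplatin 3 was the highest with 195 CPM and WT cisplatin 8 the lowest with 1.54 CPM. Of 516 genes more than 2-fold lower with at least 10 CPM under cisplatin, WT cisplatin 6 held the highest cisplatin value in 365 (70.7%) and WT cisplatin 3 in 140 (27.1%). Of 479 genes more than 2-fold higher, WT cisplatin 6 held the lowest value in 351 (73.3%).

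**Figure D4:**
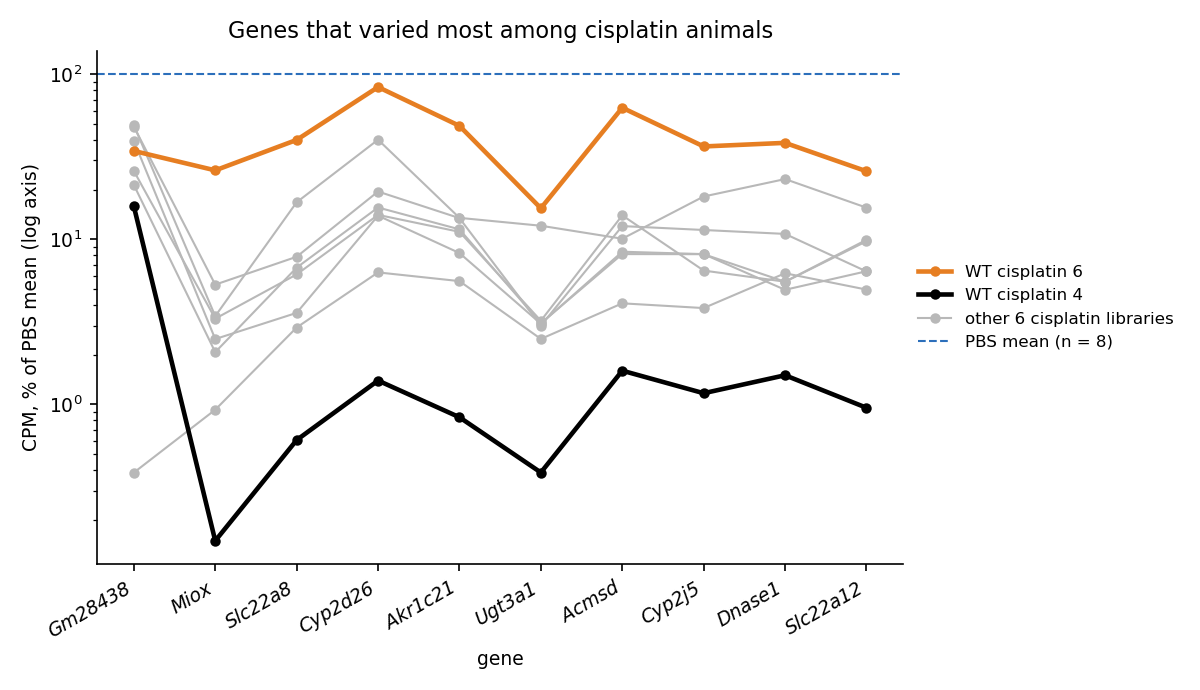
Level of the 10 most variable genes in each of the 8 cisplatin libraries, as a percentage of the PBS mean on a log axis, with each library joined by a line. WT cisplatin 6 (orange) is the highest and WT cisplatin 4 (black) the lowest in 9 of the 10 genes, Gm28438 being the exception, and the dashed line marks the PBS mean.

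Against this, 10 genes with at least 100 CPM had the smallest fold changes of all: Tmem245, Pafah1b1, Usp34, Rpl10a, Jak1, Ankrd17, Kpna4, Herc1, Sesn3 and Rac1. Jak1, the cytokine receptor kinase, had 178, 183 and 190.3 CPM under cisplatin and 172, 178 and 206 CPM under PBS, and Rac1, a small GTPase of the cytoskeleton, had 161, 171 and 211 CPM under cisplatin and 167, 173 and 185 CPM under PBS. Their log2 fold changes rounded to 0, and lay between 0.39 and 0.40 with library totals.

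The mice labelled HET share no library with the WT groups, but they share the filter, the scaling and the estimate of spread. They mostly responded in the same directions. Of 19268 genes 5981 (31%) were higher and 5393 (28%) lower under cisplatin in HET. Of the 6469 WT rises, 6391 were positive in HET and 5248 were called higher, which is 81.1% of the WT rises and 87.7% of the HET rises. Of the 5705 WT falls, 5630 were negative and 4904 were called lower, 86.0% of the WT falls and 90.9% of the HET falls. Only 5 genes had opposite calls. Of the more than 2-fold changes 1072 of 1096 rises and 1075 of 1088 falls were called in HET, with a median absolute log2 fold change of 1.81 in HET and 2.06 in WT, where the genes were chosen. No gene passed the edgeR test of the difference between the genotypes' responses (smallest adjusted p = 0.725), and 1079 (5.6%) had an unadjusted p under 0.05. Cxcl17 had the smallest, and since it had 0 counts in WT PBS its fitted fold change depends on the prior count. Some HET libraries and WT PBS 6 have doubtful labels at the Nbl1 locus.

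**Figure D5:**
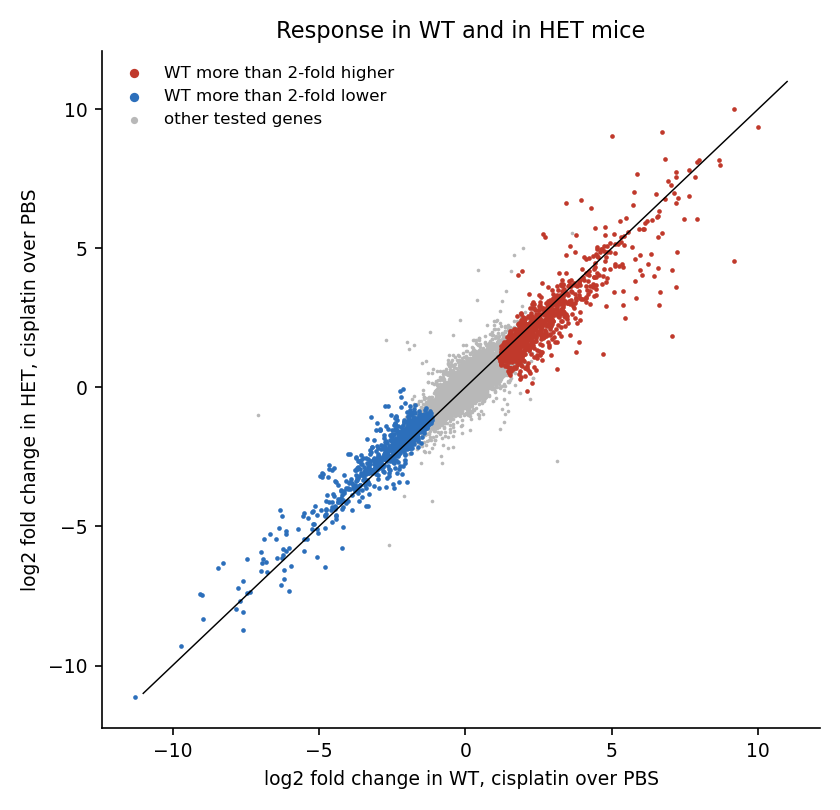
Log2 fold change of cisplatin over PBS in WT mice (horizontal) and in HET mice (vertical) for 19268 genes, with the WT calls of more than 2-fold in red (higher) and blue (lower). In HET 1072 of the 1096 red and 1075 of the 1088 blue genes were called in the same direction, and the line marks equal change.

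Markers of other cell types rose in some lists and fell in others, while 33.6% of all genes rose and 29.6% fell. The lists are short. Markers of collecting duct (33.3% each way), podocyte (40% each way) and smooth muscle (25% each way) lay near the shares of all genes. The 4 endothelial markers fell in 4 of 4 (2 fell and 1 rose with library totals), 2 of 4 fibroblast and pericyte markers rose, Dcn by 1.07 and Pdgfra by 0.50, and of 5 podocyte markers 2 rose and 2 fell. Collecting duct markers gave 2 rises and 2 falls of 6, both thick ascending limb and both distal convoluted tubule markers fell, and 3 of 5 urothelial markers rose. Of 4 macrophage markers 3 rose and Csf1r fell by 0.71. Lymphocyte markers were near the limit of detection: Cd3e had 0, 0.129 and 0.237 CPM under cisplatin and 0.106, 0.502 and 1.2 CPM under PBS (-1.94, SE 0.44), and Cd79a fell by 2.64. In all 3 of 4 tested T cell, 2 of 3 B cell and 1 of 2 plasma cell markers fell. Of 4 neutrophil markers tested Mmp8 fell by 1.93 (SE 0.86, edgeR adjusted p = 0.0496), and S100a8 and S100a9 had log2 fold changes of -1.43 and -1.50 that did not pass. Cxcr2 went the other way and did not pass either, with 753 counts under cisplatin and 588 under PBS (log2 fold change 0.30). Of the neutrophil markers too scarce to test, Ly6g had 34 counts under cisplatin and 4 under PBS, Ngp 3 and 13, and Camp 0 in both. Of 3 adipocyte markers 2 rose, with Cfd at 5.73, 25.6 and 109.6 CPM under cisplatin and 0.281, 4.69 and 19.1 CPM under PBS (2.02, SE 0.61). Kit, listed for mast cells and also made by tubules, rose by 0.33, the single adrenal marker tested, Star, was not called, smooth muscle markers gave 1 rise and 1 fall of 4, and 0 of 4 skeletal muscle markers passed the filter. Of 4 liver markers 3 fell, Ttr by 4.45 and Alb by 3.19 among them, and all 3 tested erythroid markers fell. The part these cells play in the gene lists above was not tested.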

How the data were processed

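The authors deposited 1 table with estimated counts, TPM and FPKM columns for each library; the counts need not be whole. Reads came from mRNA libraries, and the submitters' processing notes name fastp, STAR, featureCounts and the mouse build GRCm38 (mm10), with no versions. Whether counting used strand is not stated. FPKM values, as deposited, were not used, and the deposited TPM values served 1 alternative.

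Counts were rounded and tested with edgeR 4.0.16 (R 4.3.3): filterByExpr, TMM scaling, 4 group means over 31 libraries, quasi-likelihood F test for WT cisplatin minus WT PBS, and a second test against a fold of 2, with Benjamini-Hochberg adjustment at 0.05. CPM are TMM-scaled, and log2 fold changes are cisplatin over PBS with a prior count of 0.125. In brackets, the first value is the log2 fold change and the second its standard error. The 8 and 8 libraries are single animals by number. The spread behind the edgeR p-values is that between animals within the 4 groups, estimated over all 31 libraries. With the WT libraries alone 6258 genes were higher and 5503 lower, and 957 and 1015 by more than 2-fold. No replicate numbers pair libraries. Alternatives used limma 3.58.1 and DESeq2 1.42.0. The scripts were tested on simulated data.

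Named genes were the 15 largest rises and falls with a regular symbol and a mean of at least 1 CPM in the higher group, the 10 largest gains and losses in CPM, up to 4 members with the smallest p of each family and list, the 10 most variable, the 10 least changed, genes at 0 in 1 group, and Nbl1; exceptions are marked, and some genes the rule names are not reported here. The members and lists were chosen with earlier results of these data known.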

Additional observations from a re-analysis of the deposited data

Results flagged for a closer look

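Among 348 groups of 8 values, from 174 genes named above, 35 had 1 library far from the other 7, by Dixon's ratio on log2 CPM. Chance alone would flag about 1 in 20 groups of independent, normally spread values, or 17.4 here. That number is only a rough guide, because the genes share libraries and some were chosen for their spread. A group with 7 libraries at 0 is always flagged, as in Casp14, Cxcl5 and Serpina3m under PBS and Cldn18 under cisplatin.

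WT cisplatin 6 was the distant library in 9 of them. It was low, nearer the PBS level, in Hoxb9 (33.8 CPM), Tnfrsf10b (21.4 CPM), Cdkn1a (364 CPM), Cyp2s1 (46 CPM), Nbl1 (10.7 CPM), Cox6b2 (12.1 CPM) and Sox11 (2.72 CPM). It was also low in Ankrd17 (204 CPM), and it held the single count of Cldn18 (0.0316 CPM). WT cisplatin 4 was high in Rac1 (211 CPM) and Gm6300 (0.0943 CPM) and low in Tnfsf10 (17.9 CPM), Ces1d (27.9 CPM) and H2-Ab1 (2.14 CPM). WT cisplatin 3 was high in Cyp4b1 (425 CPM) and low in Gm21154 (1.01 CPM), WT cisplatin 5 was high in Rars2 (23.7 CPM), and WT cisplatin 8 was low in Gm28438 (1.54 CPM) and had 0 CPM of Cd3e.

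Under PBS, WT PBS 6 was low in Nbl1 (3.71 CPM), high in Cltrn (977 CPM) and Cyp2d12 (70.6 CPM), and held the counts of Cxcl5 (0.0687 CPM). WT PBS 7 was low in Ush1c (66.5 CPM) and Acsm2 (4237 CPM) and held the 1 count of Casp14 (0.0377 CPM). WT PBS 8 was low in Cd79a (0 CPM) and Wnt11 (0.649 CPM). WT PBS 5 was high in Tnfrsf10b (8.46 CPM) and low in Hoxb3 (8.04 CPM), and WT PBS 4 was high in Slc7a13 (1140 CPM) and H2-Eb1 (58.3 CPM). WT PBS 2 was high in Alb (17.5 CPM) and held the 1 count of Serpina3m (0.0333 CPM), and WT PBS 1 was low in Cfd (0.281 CPM).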

How the results depend on the processing

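With library totals 11831 genes were higher and 2862 lower, and 1965 and 663 by more than 2-fold. A limma test on log2(TPM + 1), which changes the values, the scaling and the test together, called 12055 higher and 2439 lower. The cause of these differences was not tested. The other alternatives kept each count computed under them within 1.5 times (limma voom and DESeq2 gave no count of more than 2-fold changes): without each of the 16 WT libraries in turn, 6224 to 6503 genes were higher and 5523 to 5821 lower, and 969 to 1167 and 1002 to 1229 by more than 2-fold. The test of the difference between genotypes called 0 genes in each of the 16 fits without 1 library. Leaving out both libraries that stand apart was chosen after seeing the data.

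The longest decile of genes by genomic span differed from the shortest by -0.07 in median log2 fold change, whereas by total exon length the longest decile was 0.10 above the shortest. For the 174 genes named in the text, 4607 of 4673 values under alternatives kept their direction and side of the threshold, 24 were no longer called, 23 became called, 19 moved and 0 reversed a called value. Genes with few counts are limited by depth. No paired analysis was possible because the labels give no replicate numbers.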
